A study of Mus musculus with 6 samples.

Results

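The genes described here are 7 surface and accessory genes that are associated with Th17 cells: Tmem176a, Tmem176b, Basp1, Ltb4r1, Cd163l1, Abcb1a and Ccl20. They were taken by symbol from a table of 15452 genes after the version number was dropped from each Ensembl gene ID, and all 7 were found and were among the 15361 genes tested. Messenger RNA was sequenced from 6 cultures of mouse Th17 cells, 3 labelled WT and 3 labelled as a PDH (pyruvate dehydrogenase) knockout. Both groups were grown from naive CD4+ T cells that had been isolated on magnetic beads from spleen and lymph nodes. They spent 3 days with plate-bound anti-CD3 (5 µg/mL), anti-CD28 (1 µg/mL), IL-6 (30 ng/mL), TGFβ (2 ng/mL) and anti-IFNγ (5 µg/mL). WT mice carried floxed alleles without Cre, and knockout mice carried the same floxed alleles with CD4 Cre, which is active in T cells. Cre was thus present in the knockout group alone, and its own effect cannot be told apart from that of the deletion. The genotype labels spell the locus PDH and the sample titles spell it PHD (PHD-fl/fl, PHD-fl/fl_CD4cre). Neither names the floxed gene, and the mice's strain and age were not stated in the sources used here.

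Th17 cells are CD4+ helper T cells that make interleukin 17 and are found above all at mucosal surfaces. Besides their cytokines they carry a set of membrane and secreted proteins that act in migration, ion transport and drug efflux. CCL20 is the chemokine ligand of CCR6, the receptor that marks Th17 cells. LTB4R1 (BLT1) is the receptor through which the lipid leukotriene B4 attracts leukocytes. TMEM176A and TMEM176B are membrane-spanning proteins related to the MS4A family, and CD163L1 (known in mouse as SCART1) is a scavenger receptor best known from γδ T cells. ABCB1A is a P-glycoprotein, an ATP-driven efflux pump, and BASP1 is a lipid-anchored protein of the inner face of the plasma membrane.

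The sequences upstream of the genes whose behaviour the results turn on are shown first. They come from RefSeq (build GRCm38.p6) and were matched by symbol. The stretch between the closest start sites of Tmem176a and Tmem176b is printed because these neighbours are read outward from it in opposite directions and were both higher in the knockout libraries. The windows of 250 bases upstream of Ccl20, Abcb1a and Abcb1b are printed because Ccl20 was also higher there, while Abcb1a and its near copy Abcb1b went opposite ways. Capitals mark matches to the motifs searched, and a sequence without capitals held none.
Tmem176b to Tmem176a, chr6:48841375-48841482, + strand, which is the strand of Tmem176a: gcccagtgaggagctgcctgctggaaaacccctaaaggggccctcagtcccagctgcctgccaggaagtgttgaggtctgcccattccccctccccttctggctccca
Ccl20, chr1:83116516-83116765, + strand: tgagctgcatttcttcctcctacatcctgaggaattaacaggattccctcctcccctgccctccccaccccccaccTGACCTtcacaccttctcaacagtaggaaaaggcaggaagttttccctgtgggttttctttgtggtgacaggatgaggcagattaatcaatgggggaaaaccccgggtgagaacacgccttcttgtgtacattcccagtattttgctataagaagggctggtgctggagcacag
Abcb1a, chr5:8566841-8567090, + strand: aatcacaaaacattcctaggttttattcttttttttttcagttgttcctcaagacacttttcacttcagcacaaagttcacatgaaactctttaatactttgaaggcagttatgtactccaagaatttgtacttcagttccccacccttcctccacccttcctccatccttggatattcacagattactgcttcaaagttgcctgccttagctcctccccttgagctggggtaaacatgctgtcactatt
Abcb1b, chr5:8797897-8798146, + strand: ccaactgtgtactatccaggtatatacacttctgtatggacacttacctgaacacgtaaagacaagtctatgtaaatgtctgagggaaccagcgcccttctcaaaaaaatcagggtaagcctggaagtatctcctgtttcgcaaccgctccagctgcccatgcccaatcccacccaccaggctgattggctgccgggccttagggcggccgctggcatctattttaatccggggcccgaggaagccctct

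The stretch between the Tmem176 start sites is 108 bases long, with 63.9% G and C. The motifs searched on both strands, in the 250 bases upstream of each annotated start site, were AGGTCA (a nuclear receptor core motif), TTCNNNGAA (STAT), TGANTCA (AP-1) and CACGTG (E-box). None of these motifs contains another. Of the 10 windows that RefSeq gives for the 7 genes, 1 held a match, the AGGTCA motif of Ccl20, which begins at position -174 from the start site and is printed there as its reverse complement, TGACCT. Among all 32851 windows of this length, 14.02% held AGGTCA, 7.02% the STAT motif, 6.75% the AP-1 motif and 6.02% the E-box. A match is a description of these letters and does not show a bound site.

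Total counts lay between 33.8 M and 40.4 M per library (M for mega), and a count of 0 would have allowed up to 0.089 CPM in the shallowest (3 counts, counting error only). Levels are in CPM, counts per M counts with TMM scaling, and changes are log2 fold changes of knockout over WT with their SE. Adjusted p-values come from edgeR's quasi-likelihood test over all tested genes with Benjamini-Hochberg adjustment, and a gene is called at an adjusted p under 0.05. The p-values set the difference between the groups against the spread between these samples. Nothing in the labels ties the replicates to separate animals, so this spread need not be that between animals. Pdha1, a PDH subunit gene read as a check of the labels, was at 256, 236 and 251 CPM in WT and 198, 193 and 186 CPM in knockout (-0.36 ± 0.06, adjusted p = 0.000871). Cd4 and Cd3e, which define helper T cells, were above 100 CPM in every library, but Cd4 was lower in knockout (means of 488 and 345 CPM, -0.50 ± 0.06, adjusted p = 0.000218). The 6 T cell markers summed to between 1584 and 1679 CPM by library totals in WT and to between 1206 and 1317 CPM in knockout. Cd3d, Cd3g, Cd4 and Trac were lower in every knockout library than in any WT library, whereas Cd3e and Trbc2 overlapped. Cd3e changed by -0.04 ± 0.06 (adjusted p = 0.568). Trbc2 was at 369, 413 and 313 CPM by library totals in WT and at 370, 358 and 386 CPM in knockout. The part of these marker levels in the results below was not tested. Knockout replicate 2 stood apart in that 4.95% of its counts fell on 1 unnamed entry, against at most 1.397% on the top entry of any other library. The 7 B cell markers other than Ighm summed to between 2.60 and 3.49 CPM by library totals in WT replicates 1 and 3 and knockout replicate 1. Their sums were 24.7, 47.6 and 79.1 CPM in WT replicate 2 and knockout replicates 2 and 3.

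Of the 7 genes, 4 were called higher in knockout (Tmem176a, Tmem176b, Cd163l1 and Ccl20), 2 were called lower (Ltb4r1 and Abcb1a) and Basp1 was not called. Over all tested genes 23.1% were called higher and 24.5% lower, and the median log2 fold change was 0.01. Without the 3 libraries in which those B cell sums were raised, so that replicate 1 is the sole knockout library and is assumed to vary like WT, 3 were called higher and 2 lower, beside 15.9% and 18.6% of all genes tested in that fit. The knockout values lay wholly above the WT values in the same 4 genes and wholly below them in the same 2, where 28.8% and 29.4% of all tested genes did so (58.2% in either direction). The deposited table holds only genes with at least 10 counts in 3 libraries, and Cd163l1 reached 10 in knockout libraries alone. It could thus enter only by being higher there, and it adds nothing to either count of 4.

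**Figure D1:**
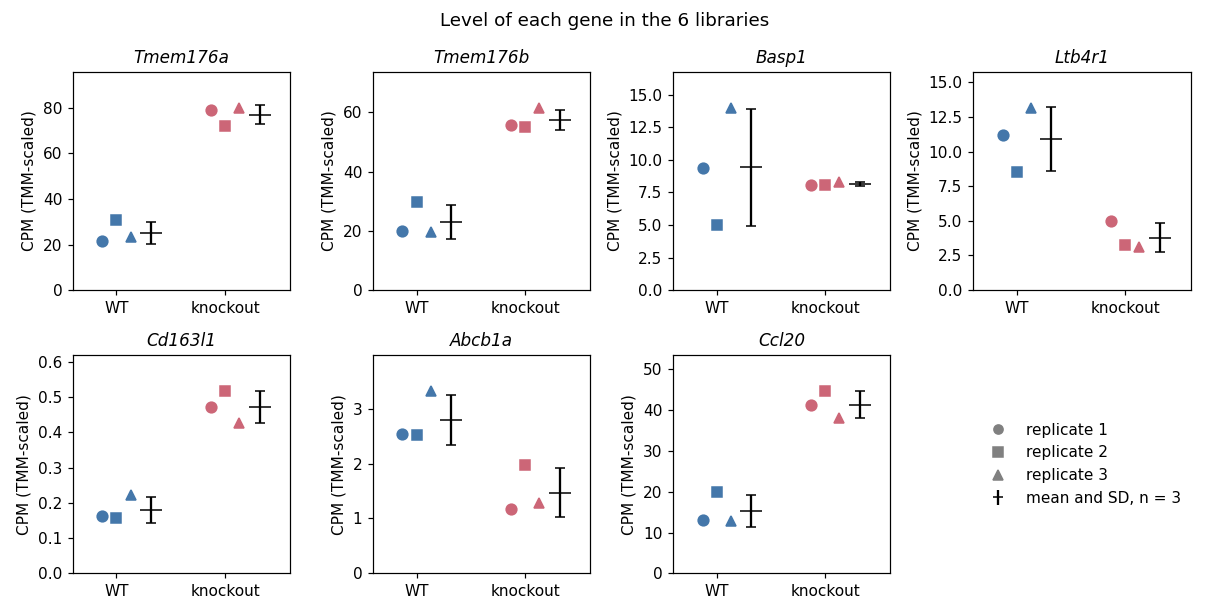
Level of each of the 7 genes in CPM (vertical axes, linear, from 0) in 3 WT and 3 knockout libraries, with a marker for each replicate number and a bar for the mean and SD. WT replicate 2 is the highest WT library for Tmem176a, Tmem176b and Ccl20 and the lowest for Basp1 and Ltb4r1, and the 3 knockout values of Basp1 lie close together within the WT range.

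Tmem176a and Tmem176b encode the pair of MS4A-related membrane proteins, which are thought to act as cation channels of intracellular membranes. Tmem176a (ENSMUSG00000023367) was at 21.7, 30.6 and 23.1 CPM in WT replicates 1 to 3 and at 79.1, 72.0 and 79.8 CPM in knockout replicates 1 to 3. Tmem176b was at 19.97, 29.6 and 19.6 CPM in WT and at 55.7, 55.2 and 61.4 CPM in knockout. In both genes every knockout library was above every WT library, and WT replicate 2 was the highest of its group. The fitted rise was 3.06-fold for Tmem176a (1.61 ± 0.12, adjusted p = 3.65e-05) and 2.49-fold for Tmem176b (1.31 ± 0.16, adjusted p = 0.000583). Only 4.39% of tested genes had a larger log2 fold change, in either direction, than Tmem176a.

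Because Tmem176a and Tmem176b were counted in the same libraries, the ratio of their counts does not depend on scaling. There were 0.918, 0.970 and 0.849 Tmem176b counts for each Tmem176a count in WT and 0.703, 0.767 and 0.769 in knockout. The groups did not overlap, and every knockout ratio was lower than every WT ratio. The difference of the log2 ratio was -0.29, with p = 0.1 in an exact two-sided permutation test, the smallest that 3 libraries against 3 can give (adjusted p = 0.15 over the 3 ratios computed). The exons of the neighbours share 81 bases on opposite strands in GENCODE M21, which is 2.13% of those of Tmem176a and 3.42% of those of Tmem176b. Libraries were made with a stranded kit. How the upstream quantification used the strand is not given in the sources used here.

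The MS4A genes encode proteins that resemble the TMEM176 proteins. Of 8 tested (15 listed), 1 was called higher, 2 lower and 5 were not called (median log2 change 0.31), beside 23.1% called higher and 24.5% lower over all genes. Ms4a6b, which is expressed in T cells, was at 175, 177 and 163 CPM in WT and at 98.7, 139 and 123 CPM in knockout (-0.51 ± 0.11, adjusted p = 0.00618). Ms4a4c and Ms4a4a were called with overlapping groups (0.69 ± 0.24, adjusted p = 0.0385, and -1.18 ± 0.44, adjusted p = 0.0491). The Ms4a4c call was lost without WT replicate 1 or 3 or knockout replicate 2 or 3 (adjusted p from 0.0816 to 0.153), and the Ms4a4a call without any library except WT replicate 2 (adjusted p from 0.0565 to 0.202). Ms4a1, which encodes the B cell antigen CD20, was at 0.297, 2.51 and 0.247 CPM in WT and at 0.347, 5.81 and 6.94 CPM in knockout (adjusted p = 0.306). Ms4a1 is itself 1 of the 7 B cell markers whose sum was raised in its 3 high libraries.

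Ccl20 encodes a secreted chemokine that draws cells carrying CCR6. It was at 12.9, 19.9 and 12.9 CPM in WT and at 41.3, 44.5 and 38.0 CPM in knockout. All knockout libraries were above all WT libraries, and WT replicate 2 was again the highest WT value. The fitted rise was 2.71-fold (1.44 ± 0.17, adjusted p = 0.000538). Its receptor gene Ccr6 also rose, 1.77-fold (0.83 ± 0.09, adjusted p = 0.000132), from 39.6, 37.0 and 43.3 CPM to 74.6, 61.7 and 76.3 CPM. There were 3.06, 1.86 and 3.35 Ccr6 counts per Ccl20 count in WT and 1.81, 1.39 and 2.01 in knockout. Here the groups overlapped, because WT replicate 2 fell among the knockout values, and the difference of the log2 ratio was -0.64 (exact permutation p = 0.2, adjusted p = 0.2).

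Among 12 other chemokine ligand genes tested (18 listed), 5 were called higher, 1 lower and 6 were not called (median log2 change 0.60). Over all genes 23.1% were called higher and 24.5% lower. Ccl5, an inflammatory chemokine gene, was at 0.351, 0.445 and 0.297 CPM in WT and at 1.73, 1.26 and 2.27 CPM in knockout (2.26 ± 0.30, adjusted p = 0.000321). Cxcl2 and Cxcl10 rose by 2.66 ± 0.39 and 1.82 ± 0.29 (adjusted p = 0.000544 and 0.00113). All of these stayed below 10 CPM in every library, whereas Ccl20 was above 10 CPM in every one. Ccl4, the gene called lower, was also above 10 CPM in every library. It was at 35.8, 55.2 and 25.3 CPM in WT and at 18.6, 20.5 and 18.3 CPM in knockout (-1.02 ± 0.30, adjusted p = 0.0405). Cxcl2 reached 10 counts in knockout libraries alone, and the deposited table holds only genes with at least 10 counts in 3 libraries, so it could enter the table only by being higher there.

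**Figure D2:**
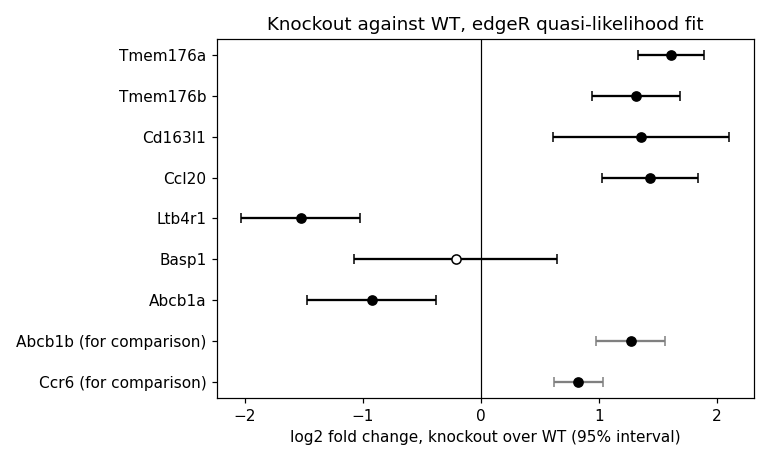
Log2 fold change of knockout over WT (horizontal axis) with its 95% interval for the 7 genes, and for Abcb1b and Ccr6 for comparison, from the quasi-likelihood fit; filled points have an adjusted p under 0.05. Tmem176a is at 1.61 and Ltb4r1 at -1.53, the interval of Basp1 runs from -1.07 to 0.65, and Abcb1a and Abcb1b lie on opposite sides of 0.

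Ltb4r1 encodes BLT1, the high-affinity leukotriene B4 receptor that guides leukocytes toward inflamed tissue. It was at 11.2, 8.51 and 13.1 CPM in WT and at 5.00, 3.26 and 3.09 CPM in knockout. The groups did not overlap, and the lowest WT value was that of replicate 2. The fitted decrease was 2.88-fold (-1.53 ± 0.22, adjusted p = 0.00066), and 5.08% of tested genes had a larger change in either direction. Its low-affinity counterpart Ltb4r2 was at 0.162, 0.157 and 0.395 CPM in WT and at 0.272, 0.802 and 0.623 CPM in knockout, with overlapping groups (adjusted p = 0.0692). Ltb4r2 had fewer than 10 counts in some libraries, so no ratio of the receptors was formed.

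The genes that make leukotriene B4 were read beside its receptor. Lta4h, whose enzyme carries out the last step of leukotriene B4 synthesis, fell from 168, 172 and 173 CPM to 131, 126 and 124 CPM (-0.42 ± 0.05, adjusted p = 0.000239). Alox5, the lipoxygenase of the first step, was at 0.189, 0.183 and 0.0988 CPM in WT and at 0.668, 0.888 and 0.680 CPM in knockout (2.23 ± 0.35, adjusted p = 0.000741). Alox5 was named after its values were seen, and it reached 10 counts in knockout libraries alone. Alox5ap, its activating protein, was at 0.459, 0.262 and 0.766 CPM and 0.446, 0.401 and 0.538 CPM (adjusted p = 0.838).

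Of 18 tested genes of leukotriene and prostanoid synthesis and reception (24 listed), 7 were called higher, 4 lower and 7 were not called (median log2 change 0.26). The shares over all genes were 23.1% higher and 24.5% lower. Of the 7 called higher, Alox5 and Ptger3 reached 10 counts in knockout libraries alone and could enter the table only by being higher there. Ptger2 and Ptger4, which encode prostaglandin E2 receptors, rose. Ptger2 went from 23.2, 25.7 and 20.4 CPM to 41.7, 44.1 and 44.6 CPM (0.91 ± 0.09, adjusted p = 6.52e-05). Ptger4 went from 66.8, 78.1 and 68.1 CPM to 157, 124 and 136 CPM (0.97 ± 0.10, adjusted p = 8.37e-05). Other prostanoid receptor genes of the list were called lower, as Ltb4r1 was: Ptgir, the prostacyclin receptor gene (-0.57 ± 0.09, adjusted p = 0.000983), and Tbxa2r, the thromboxane receptor gene (-0.44 ± 0.12, adjusted p = 0.0157).

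Cd163l1 encodes a scavenger receptor of the SRCR (scavenger receptor cysteine-rich) family and was by far the weakest of the 7. It had 6, 6 and 9 counts in WT and 19, 18 and 15 counts in knockout, or 0.162, 0.157 and 0.222 CPM against 0.470, 0.515 and 0.425 CPM. The groups did not overlap, and the fitted rise was 2.57-fold (1.36 ± 0.33, adjusted p = 0.00804). Only its knockout counts reached 10, so it could enter the deposited table only by being higher there, and its call adds nothing to the count of genes that rose. The call was lost with DESeq2 (adjusted p = 0.0653) and without WT replicate 2 and knockout replicates 2 and 3 (adjusted p = 0.117).

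In mice Cd163l1 is a known gene of interleukin 17-producing γδ T cells, so their markers were read in the same libraries. Trdc, Tcrg-C1 and Sox13 together were at 3.20, 2.41 and 2.30 CPM by library totals in WT and at 5.13, 4.53 and 6.27 CPM in knockout. Trdc, the δ receptor constant gene, and Sox13, a transcription factor of these cells, were called higher (0.84 ± 0.19, adjusted p = 0.00611, and 2.03 ± 0.45, adjusted p = 0.00492), as was Tcrg-C1 (0.83 ± 0.26, adjusted p = 0.0240). Sox13 held 12, 4 and 5 counts in WT and 23, 23 and 37 in knockout. It met the table's rule of 10 counts in 3 libraries only through knockout libraries. Without WT replicate 2 and knockout replicates 2 and 3 all 3 calls were lost (adjusted p = 0.0591 for Trdc, 0.127 for Sox13 and 0.206 for Tcrg-C1). The Tcrg-C1 call was also lost with DESeq2 (adjusted p = 0.115) and without WT replicate 1 or 3 or knockout replicate 2 or 3 (adjusted p from 0.0510 to 0.0946). The fourth marker in the table, Blk, is also a B cell gene and reached its highest values in the libraries with raised B cell markers. Trdv4 and Tcrg-V6 were also listed as markers, but neither symbol was found among the 15452 genes. The γδ marker sum and Cd163l1 were both higher in every knockout library than in any WT library, as were 28.8% of all tested genes. The coefficient of variation of Cd163l1 was 20.1% in WT and 9.61% in knockout, where counting alone would give 37.8% and 24.0%. Its order within a group is therefore not read. The markers' part in the rise of Cd163l1 was not tested, and in bulk RNA more cells of a type and more RNA per cell cannot be told apart.

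Of 7 other SRCR genes tested (11 listed), 2 were called higher, none lower and 5 were not called (median log2 change 0.00). Among all tested genes 23.1% were called higher and 24.5% lower. Cd5l, a lipid-binding regulator described in Th17 cells, went from 21.6, 29.6 and 19.97 CPM to 43.2, 50.5 and 47.9 CPM (0.99 ± 0.15, adjusted p = 0.001). Like Ccl20 and the Tmem176 genes it was highest, among WT libraries, in replicate 2. Ssc5d, a soluble SRCR protein gene, stayed below 2 CPM in every library and rose by 2.04 ± 0.53 (adjusted p = 0.0108), a call lost without WT replicate 2 and knockout replicates 2 and 3 (adjusted p = 0.0522). Knockout replicate 2 held 50 Ssc5d counts against 21 and 16 in replicates 1 and 3, and without it the log2 fold change was 1.33. With 7, 10 and 5 counts in WT, Ssc5d met the table's rule of 10 counts in 3 libraries only through knockout libraries. The second SCART gene, listed under its older symbol 5830411N06Rik, was at 0.594, 0.812 and 0.939 CPM in WT and at 0.990, 1.117 and 1.59 CPM in knockout (adjusted p = 0.0793).

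Abcb1a encodes P-glycoprotein, which mouse genomes carry in a pair of near copies, Abcb1a and Abcb1b. Abcb1a was at 2.54, 2.51 and 3.31 CPM in WT and at 1.16, 1.98 and 1.28 CPM in knockout. The groups did not overlap, and knockout replicate 2 was the highest of its group. The fitted decrease was 1.90-fold (-0.92 ± 0.24, adjusted p = 0.0115). Abcb1b was far higher and moved the other way, from 43.0, 54.9 and 43.2 CPM to 97.0, 126 and 118 CPM, a rise of 2.41-fold (1.27 ± 0.13, adjusted p = 0.000191).

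There were 16.9, 21.9 and 13.04 Abcb1b counts for each Abcb1a count in WT and 83.4, 63.9 and 92.2 in knockout. Every knockout ratio was above every WT ratio, and the difference of the log2 ratio was 2.22 (exact permutation p = 0.1, adjusted p = 0.15). Of the 31-base words in Abcb1a transcripts of GENCODE M21, 21.7% also occur in Abcb1b transcripts, so the division of counts between the copies by the upstream quantification is uncertain in that share. Of the Abcb1a exon bases, 10.1% are also overlapped on the opposite strand by the provisional gene model Gm42686. For the other 6 genes at most 0.026% of such words occur in another gene.

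**Figure D3:**
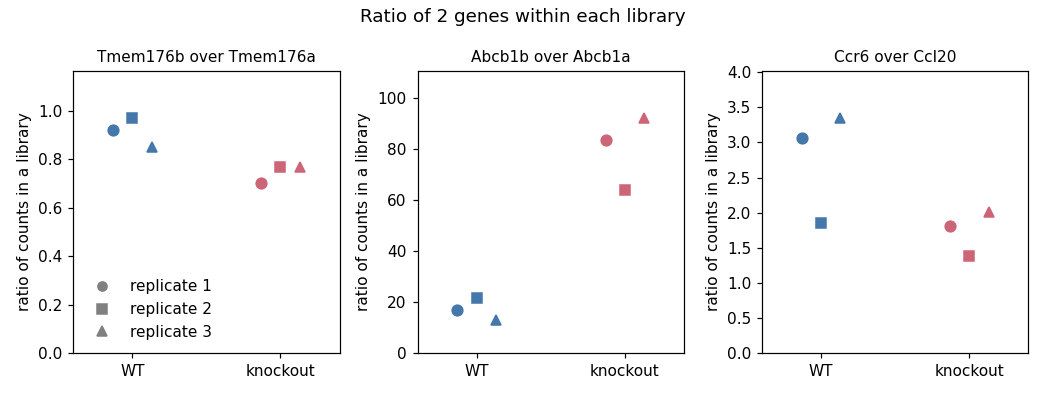
Counts of the first gene divided by those of the second gene within each library (vertical axes, linear, from 0) for 3 pairs, with a marker for each replicate number. Knockout libraries have 63.9 to 92.2 Abcb1b counts per Abcb1a count, all above the WT values of 13.04 to 21.9, and the Ccr6 to Ccl20 ratio of WT replicate 2 lies among the knockout values.

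Of 16 other ABC transporter genes of the B, C and G classes, 5 were called higher, 4 lower and 7 were not called (median log2 change 0.08), near the shares over all genes (23.1% and 24.5%). Abcb10, a mitochondrial inner membrane transporter, fell from 17.6, 17.1 and 16.4 CPM to 9.56, 9.88 and 10.3 CPM (-0.78 ± 0.09, adjusted p = 0.000124). Abcb8, also mitochondrial, rose from 44.5, 48.7 and 41.7 CPM to 68.1, 68.6 and 71.3 CPM (0.62 ± 0.07, adjusted p = 0.000126). Of 5 tested genes of nuclear receptors tied to drug and bile acid transport (8 listed), 2 rose, 2 fell and 1 was not called (median log2 change -0.09). The same shares over all genes, 23.1% and 24.5%, stand beside these. Rxra, the shared partner of many nuclear receptors, rose from 27.5, 39.3 and 23.7 CPM to 108, 103 and 94.7 CPM (1.76 ± 0.19, adjusted p = 0.000651). Nr1h3, which encodes the oxysterol receptor LXRα, stayed below 2 CPM and rose by 1.45 ± 0.33 (adjusted p = 0.00539), a call lost without the same 3 libraries (adjusted p = 0.0909). Vdr, the vitamin D receptor gene, was lower with overlapping groups (-0.58 ± 0.18, adjusted p = 0.0264), and its call was lost without WT replicate 1 or 3 or knockout replicate 2 or 3 (adjusted p from 0.0825 to 0.0915) and with upper-quartile scaling (adjusted p = 0.0552).

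Basp1 encodes a myristoylated protein of the inner plasma membrane and was the gene without a call. It was at 9.38, 4.98 and 13.96 CPM in WT and at 8.09, 8.05 and 8.30 CPM in knockout. The WT libraries spanned a 2.81-fold range around the knockout libraries, which spanned a 1.03-fold range. The coefficient of variation was 47.6% in WT and 1.67% in knockout, where counting alone would give 5.22% and 5.77%. The log2 fold change was -0.21 ± 0.35 (adjusted p = 0.652), with a 95% interval from -1.07 to 0.65, so neither a decrease nor an increase was detectable against the WT spread. Without WT replicate 2 the gene was called lower (-0.52, adjusted p = 0.0249), and without WT replicate 3 its sign turned (0.18, adjusted p = 0.573).

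Basp1 is often grouped with GAP43 and the MARCKS proteins, which also bind the inner membrane and are protein kinase C substrates or relatives of them. Marcksl1 rose from 94.5, 129 and 91.4 CPM to 156, 185 and 175 CPM (0.71 ± 0.14, adjusted p = 0.0048), and Marcks rose by 0.65 ± 0.16 (adjusted p = 0.0134). Gap43 fell by 0.85 on the log2 scale, from 6.21, 8.49 and 8.20 CPM to 6.04, 3.12 and 3.51 CPM (adjusted p = 0.0223). The Marcks call was lost without WT replicate 1 (adjusted p = 0.0551), and the Gap43 call without WT replicate 2 or 3 or knockout replicate 2 or 3 (adjusted p from 0.0579 to 0.0861). The median of the 3 was 0.65.

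Transcript levels of different genes were compared per kilobase of coding-transcript exons (GENCODE M21). In WT the order was Tmem176a with a mean of 15.1 CPM per kilobase, Tmem176b with 10.8, Ccl20 with 10.7, Ltb4r1 with 7.84, Basp1 with 5.09, Abcb1a with 0.558 and Cd163l1 with 0.0518. In this order the neighbours from Tmem176a to Basp1 overlapped in their WT libraries, whereas Abcb1a lay wholly below Basp1 and Cd163l1 wholly below Abcb1a. In knockout Tmem176a led with 46.3 CPM per kilobase, followed by Ccl20 with 29.0, Tmem176b with 26.8, Basp1 with 4.39, Ltb4r1 with 2.72, Abcb1a with 0.295 and Cd163l1 with 0.135. There the ranges of Ccl20 and Tmem176b overlapped and those of the other neighbours did not. Basp1 and Ltb4r1 had changed places: Ltb4r1 was at 2.22 to 3.59 CPM per kilobase in knockout and Basp1 at 4.34 to 4.48.

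Profiles over the 6 libraries were compared by the root mean square difference of log2 CPM, each gene centred on its WT mean. Among the 7 genes the closest pair was Tmem176b and Ccl20 (0.14), followed by Tmem176a and Ccl20 (0.17) and by Tmem176a and Tmem176b (0.22). Ltb4r1 and Abcb1a, which both fell, were 0.59 apart, and Tmem176a and Ltb4r1 were the farthest pair (2.26). Part of this likeness lay within the WT group. WT replicate 2 was 1.36, 1.497 and 1.54 times the mean of the other WT libraries in Tmem176a, Tmem176b and Ccl20, and 0.426 and 0.701 times in Basp1 and Ltb4r1. It was the highest WT library in 3 of the 7 genes and the lowest in 4, where it was so in 38.3% and 39.4% of all tested genes. WT replicate 2 also held the raised B cell markers of its group. In knockout, replicate 1 was at 79.1 CPM for Tmem176a, 55.7 for Tmem176b and 41.3 for Ccl20. Replicates 2 and 3, with raised B cell markers, were at 72.0 and 79.8, 55.2 and 61.4, and 44.5 and 38.0 CPM. Without WT replicate 2 and knockout replicates 2 and 3 the log2 fold changes of these 3 genes were 1.82, 1.49 and 1.68. That fit has no spread between knockout libraries. The part of B cells in these levels was not tested.

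**Figure D4:**
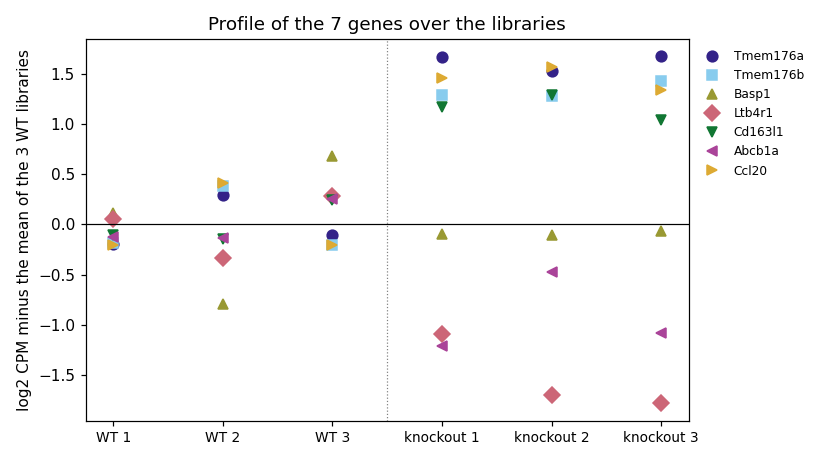
Log2 CPM of each of the 7 genes minus its mean over the WT libraries (vertical axis) in the 6 libraries (horizontal axis). Tmem176a, Tmem176b, Ccl20 and Cd163l1 lie above 0 in all knockout libraries, Ltb4r1 and Abcb1a lie below 0, and Basp1 spreads widely in WT and stays near 0 in knockout.

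Over 10730 genes with a symbol and a mean of at least 50 counts, those nearest to Tmem176a by this measure were Lacc1 (0.08) and Oplah (0.13). Pglyrp2 (0.08) and Arhgap24 (0.09) were nearest to Tmem176b, and Ifi203 (0.10) and Neto2 (0.11) to Ccl20. Zfp229 (0.07) and Chrnb2 (0.10) were nearest to Cd163l1. For the genes that fell, Fam131b (0.13) and Jcad (0.17) were nearest to Ltb4r1, and Mr1 and Gimap6 (both 0.14) to Abcb1a. Basp1 had the least similar neighbours, Wdr78 (0.18) and Prrt2 (0.19). With 6 libraries many genes come close to any profile, so these names are a description only.

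Of 25 other Th17 genes tested, 7 were called higher, 7 lower and 11 were not called (median log2 change 0.17), near the shares over all genes (23.1% and 24.5%). Cd5l is counted both here and among the SRCR genes called higher, so these counts share a gene. Il23r, Il17a and Hif1a, the called genes of the list with the smallest p, were lower in knockout, with log2 changes of -2.28, -1.31 and -1.23 (adjusted p = 3.55e-05, 1.02e-05 and 1.42e-05). Ltb4r1 and Abcb1a thus had the direction of these 3 genes, and Tmem176a, Tmem176b and Ccl20 that of Ccr6 and Cd5l.

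**Figure D5:**
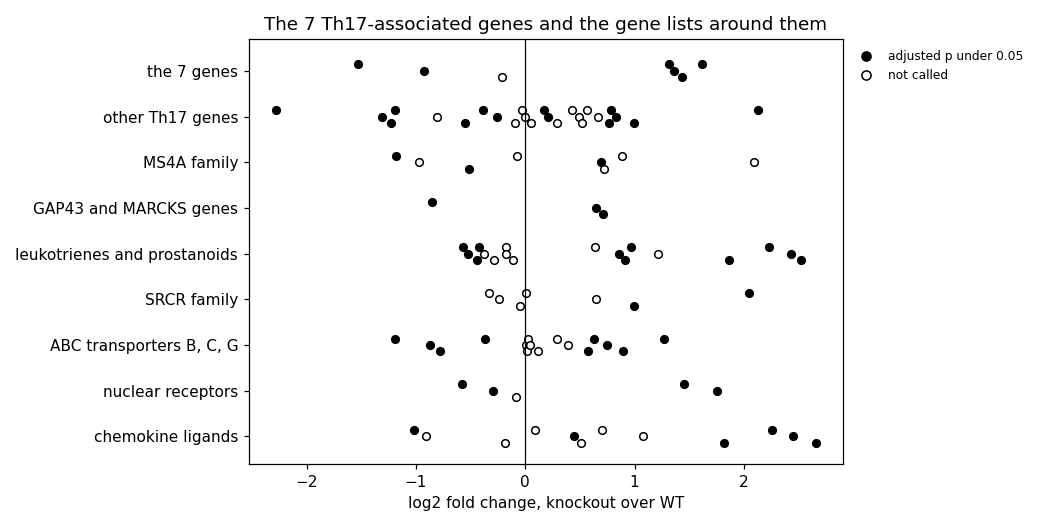
Log2 fold change of knockout over WT (horizontal axis) for every tested gene of the lists described above (rows; the vertical offset within a row only separates points), filled where the adjusted p is under 0.05. The leukotriene and prostanoid genes, the ABC transporter genes and the other Th17 genes each have called members on both sides of 0.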

How the data were processed

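The authors deposited 1 table of expected counts (estimated counts of reads per gene), given as whole numbers, so nothing was rounded. Salmon, DESeq2 and DESeq appear in the submitters' processing notes, with neither version nor role. The build and annotation behind the counts were not stated in the sources used here, and printed coordinates belong to RefSeq alone. All 15452 deposited rows hold at least 10 counts in at least 3 libraries. Unversioned gene IDs were matched to GENCODE M21 symbols (15138 matched, 314 did not).

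Counts were analysed with edgeR 4.0.16 in R 4.3.3: filterByExpr (91 genes removed), TMM scaling, a quasi-likelihood fit (robust) on genotype alone, and Benjamini-Hochberg adjustment over 15361 genes at 0.05. The test was also run on simulated counts, with mean levels taken from these libraries. Replicates were distinct libraries (chi-square per degree of freedom of at least 24.3). Ratios of 2 genes used an exact two-sided permutation over 20 assignments. Profiles used log2 CPM with a prior count of 2. The genes and lists were chosen with earlier results of these data known. Beside the 7 genes, up to 3 called genes of each list with the smallest p are named, with Il17a, Ccr6 and Abcb1b fixed (1 further gene so fixed is not reported here); Alox5, Alox5ap, Ptger3, Ptgir, Tbxa2r, Ltb4r2, Ms4a1, 5830411N06Rik, Trdc, Tcrg-C1 and Sox13 were chosen after their values were seen. Alternatives were RLE, upper-quartile and library-total scaling, DESeq2 1.42.0, limma-voom (limma 3.58.1), no filter, a filter of 50 counts in 3 libraries, no robust dispersion, a test against 1.2-fold, a replicate block, each library left out, the 3 libraries with raised B cell markers left out, and 27 entries raised in knockout replicate 2 left out. Plots used matplotlib 3.10.9 (Python 3.11.15).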

Additional observations from a re-analysis of the deposited data

How the results depend on the processing

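Tmem176a, Tmem176b, Ltb4r1, Abcb1a and Ccl20 kept their direction and their call under all 18 alternatives, with log2 fold changes from 1.52 to 1.82, 1.21 to 1.53, -1.78 to -1.28, -1.33 to -0.78 and 1.33 to 1.68. The highest adjusted p of Abcb1a was 0.0493. Without single libraries 4 of the 7 genes were called higher each time and 2 to 3 lower, beside 16.9% to 21.6% and 18.9% to 23.6% of all genes. Cd163l1, which could enter the table only by being higher, is among the 4 here and with the replicate block. Cd163l1 was not tested at a filter of 50 counts. Without single libraries Basp1 ran from -0.52 to 0.18, reversing without WT replicate 3. Tested against 1.2-fold, 3981 genes were called, 2125 higher and 1856 lower, against 7311, 3548 and 3763 in the fit reported. Upper-quartile scaling called 59.95% of changed genes higher against 48.53%. Same-numbered libraries did not deviate together (correlations from -0.26 to 0.09), and with the replicate block 7218 genes, 4 and 2 of the 7 among them, were called; the calls of Gap43 and Ms4a4a ended there (adjusted p = 0.0600 and 0.0942). Without WT replicate 2 and knockout replicates 2 and 3 the calls of Marcks (0.34, adjusted p = 0.182), Gap43 (-0.25, adjusted p = 0.371), Ms4a4c (0.49, adjusted p = 0.221) and Vdr (-0.43, adjusted p = 0.0587) ended. Ms4a4a was also not called with DESeq2, limma-voom, upper-quartile scaling, library totals or a dispersion that was not robust. Depth limits Cd163l1 most.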
